A study of Mus musculus with 4 samples.

Results

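Astrocyte transporters and marker genes were followed in sorted cells of PDGF-B-driven mouse gliomas, with late-onset high-grade tumours set against early-onset low-grade ones. The 32 genes were listed by name, and each was read from its brightest probe set, by the mean of the 4 arrays, among those annotated to that gene alone. All 32 were measured, out of 19937 genes in the series, and no filter on low values was applied. The late-onset group held cells of 2 single tumours, called tumour 1 and tumour 2, and the early-onset group held 2 pools of cells from 2 tumours each, called pool 1 and pool 2. Both groups came from C57/Bl6 mice whose embryos had received a retrovirus expressing PDGF-B and EGFP at embryonic day 14. Mice were followed until they showed symptoms, ages are not given in the sources used here, and EGFP-positive cells were sorted from every tumour. Every tumour thus carries PDGF-B from a virus, and there are no cells of an unaffected brain. A pool averages its tumours, so the spread between pools and that between single tumours are not alike.

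Astrocytes take up glutamate, GABA and other transmitters from the synapse, turn glutamate into glutamine, move potassium, bicarbonate and water, and are joined to one another by gap junctions. Their endfeet on blood vessels carry the water channel encoded by Aqp4. Several genes used to mark them, such as Fabp7, Slc1a3, Sox9, Nfia, Ednrb and Ttyh1, are also used by radial glia and glial progenitors, whereas Aqp4, Slc7a10, Slc6a11 and Gjb6 mark mature astrocytes. Olig2, Sox10 and Pdgfra, which mark the oligodendrocyte lineage that PDGF-B expands, were checked in the sorted cells. Olig2 lay between log2 11.89 and 12.12 on the 4 arrays, Sox10 between 11.49 and 11.52, and Pdgfra stood at 13.24 and 13.20 in the tumours and 13.63 and 13.71 in the pools. Pdgfra was called lower in late-onset cells by the limma fit described below (log2 fold change -0.45, adjusted p 0.041), a call lost without each of the 4 samples in turn (0.0795 to 0.229) and after median subtraction (0.106). The list is thus named for its genes, and the sorted cells carried progenitor markers on every array.

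In late-onset cells 15 of the 32 genes fell and 1 rose, against 8.12% of all genes lower and 6.59% higher. A gene was called at a Benjamini-Hochberg adjusted p under 0.05 over all genes by limma, the fit behind every adjusted p below. The median log2 fold change, late-onset minus early-onset, was -0.85 over the 32 genes and -0.01 over all genes tested. Of the 15 genes that fell, 11 fell by at least 2-fold, which 3.53% of all genes did, and the 1 that rose did so by at least 2-fold, as did 1.87% of all genes. The groups did not overlap, with both tumours below both pools, in 21 of the 32 genes, against 30.4% of all genes, and both tumours lay above both pools in 2 genes, against 28.5%. In the sorted cells as a bulk sample, fewer astrocyte-like cells and less of these transcripts per cell cannot be told apart. Without pool 2 the count of genes that fell was 8 and without pool 1 it was 11, while all genes gave 2.80% and 3.07% lower. The median over genes was 7.31 and 7.36 in tumours 1 and 2 and 7.47 and 7.51 in pools 1 and 2. Subtracting each array's median over genes moved the median of all genes to 0.15. The share of all calls that were higher became 70.1%, against 44.8% without the subtraction. The 32 genes then gave 15 lower, 2 higher and a median of -0.69.

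**Figure D1:**
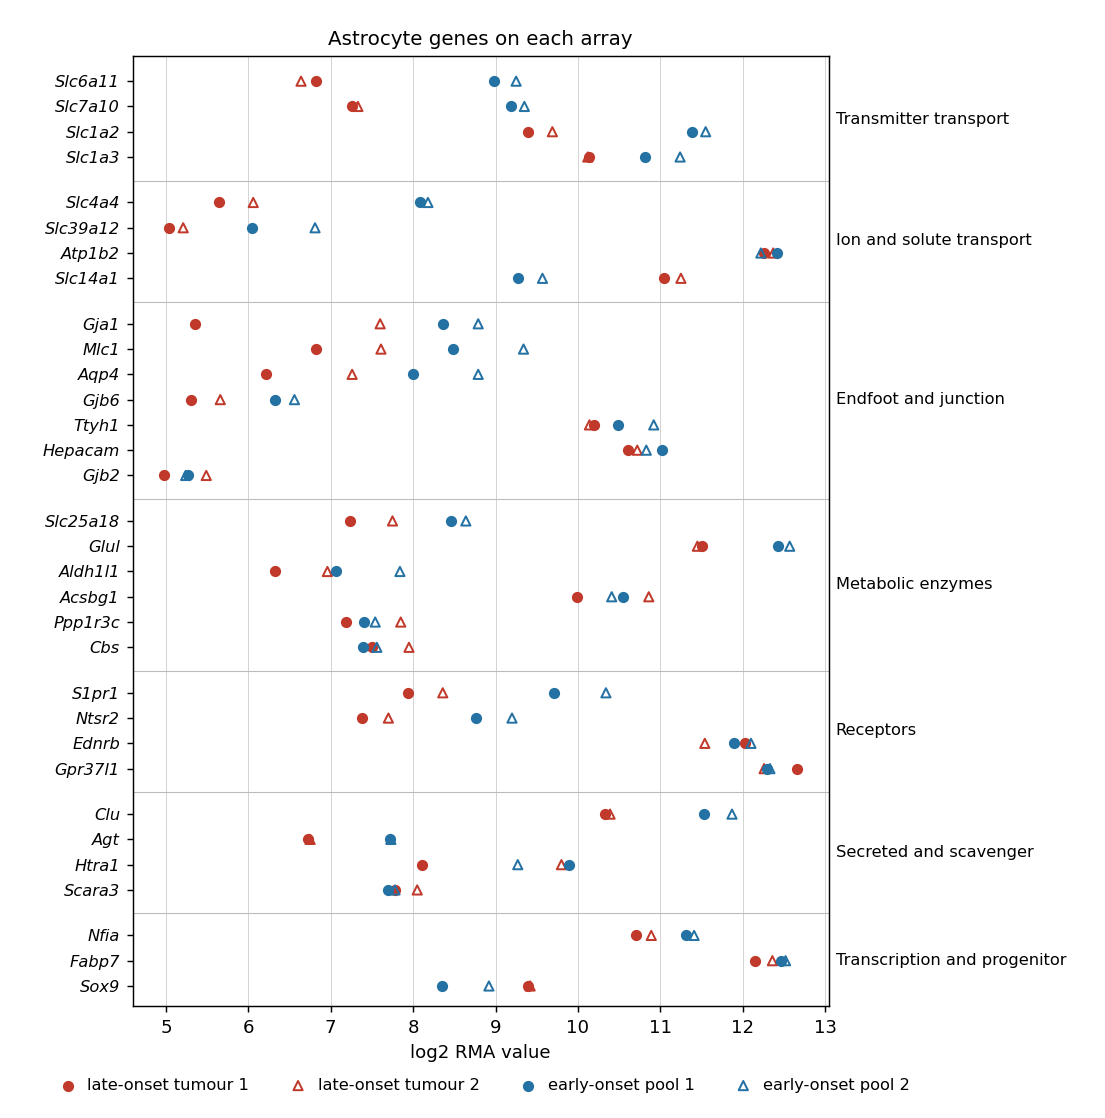
Log2 RMA values of the 32 astrocyte genes on each of the 4 arrays, grouped by role (x axis, log2 value; red, late-onset tumours; blue, early-onset pools; circles, sample 1 and triangles, sample 2). All 4 transmitter transporters lie lower in both tumours than in both pools, and Slc14a1 and Sox9 lie higher.

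The 4 transporters of transmitters all fell, the one role group in which every gene was called. Slc6a11 encodes the GABA transporter GAT-3, Slc7a10 the exchanger Asc-1 of small neutral amino acids such as D-serine and glycine, and Slc1a2 and Slc1a3 the glutamate transporters GLT-1 and GLAST. Their RefSeq promoters (GRCm38.p6, from 250 bases before to 50 after an annotated start) are shown because these genes fell together. The Slc1a2 window lies inside the gene, which begins at chr2:102658239, so it surrounds an internal start. The Slc7a10 window also begins after the first base of its gene, chr7:35186095. Capitals mark a partial site of nuclear factor I, the family of member Nfia (ttggc or gccaa), or a core of the SOX family, that of member Sox9 (acaat or attgt). They lie at chr6:114130991-114131290 (plus strand) for Slc6a11, chr7:35186135-35186434 (plus) for Slc7a10, chr2:102706188-102706487 (plus) for Slc1a2 and chr15:8710758-8711057 (minus) for Slc1a3, each printed 5′ to 3′.
Slc6a11: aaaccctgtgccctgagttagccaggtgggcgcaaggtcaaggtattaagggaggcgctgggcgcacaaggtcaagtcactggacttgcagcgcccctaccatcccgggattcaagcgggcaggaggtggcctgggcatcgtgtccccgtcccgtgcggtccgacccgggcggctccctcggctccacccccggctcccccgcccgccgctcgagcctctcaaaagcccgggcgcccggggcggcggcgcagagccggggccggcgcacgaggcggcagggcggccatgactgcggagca
Slc7a10: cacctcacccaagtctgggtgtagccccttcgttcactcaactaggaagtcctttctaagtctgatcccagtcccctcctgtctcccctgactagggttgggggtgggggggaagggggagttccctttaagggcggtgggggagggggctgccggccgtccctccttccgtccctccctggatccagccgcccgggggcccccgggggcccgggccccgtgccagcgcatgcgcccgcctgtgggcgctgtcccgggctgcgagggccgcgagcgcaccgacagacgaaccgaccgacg
Slc1a2: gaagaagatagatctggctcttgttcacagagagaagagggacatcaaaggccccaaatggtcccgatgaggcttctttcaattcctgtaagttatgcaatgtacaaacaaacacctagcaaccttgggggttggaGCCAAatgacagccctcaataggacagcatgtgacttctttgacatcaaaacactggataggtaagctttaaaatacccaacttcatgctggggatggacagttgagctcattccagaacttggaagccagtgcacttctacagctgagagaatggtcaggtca
Slc1a3: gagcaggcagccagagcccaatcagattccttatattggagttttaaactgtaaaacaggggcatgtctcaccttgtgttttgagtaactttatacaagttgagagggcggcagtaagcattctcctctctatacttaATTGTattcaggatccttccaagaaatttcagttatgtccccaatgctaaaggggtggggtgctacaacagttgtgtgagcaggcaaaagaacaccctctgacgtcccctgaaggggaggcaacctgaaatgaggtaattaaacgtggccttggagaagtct
The first pair are rich in G and C, with 72.3% in Slc6a11 and 70.7% in Slc7a10, and the glutamate transporters have 45.7% in Slc1a2 and 45.3% in Slc1a3, against a median of 52.7% over all promoters of the table. A partial nuclear factor I site occurs 1 time in the Slc1a2 window and a SOX core 1 time in the Slc1a3 window, on either strand. Of the 32 genes, 25 had a promoter in the table, and 14 of these held the partial site and 5 the SOX core, with 46.7% and 31.0% of all 32851 promoters holding them. Among the genes with a promoter, the partial site was found in 6 of 13 that fell and 8 of 12 that were not called.

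Slc6a11 stood at log2 6.82 and 6.64 in late-onset tumours 1 and 2, against 8.98 and 9.25 in early-onset pools 1 and 2. That is a 5.22-fold lower level (log2 fold change -2.38, SE 0.14, adjusted p 0.00198), the furthest fall among the 32 genes. For Slc7a10 the tumours had 7.26 and 7.33 and the pools 9.19 and 9.35. It fell by 1.97 (SE 0.11, adjusted p 0.0019), with the samples of each group close together. Slc1a2, the main glutamate transporter of mature astrocytes, had 9.39 and 9.69 in the tumours and 11.39 and 11.55 in the pools. The fall was 3.81-fold (log2 fold change -1.93, SE 0.14, adjusted p 0.00303). Slc1a3, which radial glia and progenitors also use, had 10.14 and 10.12 in the tumours and 10.81 and 11.24 in the pools. It fell by 0.89 (95% interval -1.31 to -0.48, adjusted p 0.0251), and the intervals of the other 3 transporters lie wholly below this one. Slc1a3 was no longer called without pool 2 (adjusted p 0.0889), without tumour 1 (0.0587) and without tumour 2 (0.0686), and the other 3 calls held without any 1 sample.

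Transporters of ions and solutes went both ways. Slc4a4, which encodes the sodium bicarbonate cotransporter NBCe1, had 5.64 and 6.06 in the tumours and 8.08 and 8.18 in the pools. It fell 4.85-fold (log2 fold change -2.28, SE 0.16, adjusted p 0.00301). Slc39a12, which encodes the zinc transporter ZIP12, was dim, at 5.04 and 5.21 in the tumours and 6.05 and 6.81 in the pools, and fell by 1.31 (SE 0.26, adjusted p 0.0305). Slc39a12 was not called without pool 2 (adjusted p 0.0582), without tumour 1 (0.0785) and without tumour 2 (0.0653). Slc14a1, which encodes the urea transporter UT-B, was the 1 gene of the 32 that rose. Its log2 values were 11.05 and 11.25 in the tumours and 9.27 and 9.57 in the pools, a 3.31-fold higher level (log2 fold change 1.73, SE 0.15, adjusted p 0.00412). The call held without any 1 sample, with log2 fold changes from 1.58 to 1.88. Atp1b2, the beta-2 subunit of the sodium-potassium pump that astrocytes use, had 12.26 and 12.37 in the tumours and 12.41 and 12.22 in the pools. The groups overlapped, and the difference was 0.00 with an interval of -0.30 to 0.29.

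Genes of endfeet and junctions mostly lay lower in late-onset cells, but 2 of 7 passed the test. Mlc1, which encodes a membrane protein of astrocyte junctions that is mutated in a human leukodystrophy, had 6.82 and 7.61 in the tumours and 8.49 and 9.34 in the pools. It fell by 1.70 (SE 0.37, adjusted p 0.0397). Without pool 1, pool 2 or tumour 1 the Mlc1 call was lost (adjusted p 0.0546, 0.155 and 0.0838), as it was with robust eBayes (0.0559). Aqp4 had 6.22 and 7.26 in the tumours and 8.00 and 8.79 in the pools. Its log2 fold change of -1.66 (interval -2.70 to -0.61) had an adjusted p of 0.0568. It was -2.18 without tumour 2, -1.14 without tumour 1 and -1.50 after median subtraction (adjusted p 0.0488). Aqp4 was called under 3 of the 14 alternatives to the main fit. Both genes were higher in sample 2 of each group. Hepacam, whose product GlialCAM brings MLC1 to cell contacts, had 10.61 and 10.72 in the tumours and 11.02 and 10.83 in the pools, a difference of -0.26 (-0.55 to 0.03, adjusted p 0.212). Ttyh1, which encodes a membrane protein of glia and neural stem cells, stood at -0.53 (-0.95 to -0.12, adjusted p 0.0948).

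The 3 connexin genes differed from each other. Gjb6, which encodes connexin 30, was dim, at 5.31 and 5.66 in the tumours and 6.32 and 6.56 in the pools. It fell by 0.95 (SE 0.16, adjusted p 0.0203). Its call was lost without pool 1 (adjusted p 0.0653) or pool 2 (0.117). Gja1, which encodes connexin 43, had 5.35 in tumour 1 and 7.60 in tumour 2, against 8.36 and 8.79 in the pools. Tumour 1 stood far below the other 3 samples, and the log2 fold change of -2.11 (interval -3.91 to -0.30) had an adjusted p of 0.119. It was -0.98 without tumour 1 (adjusted p 0.0492) and -3.23 without tumour 2 (0.00421). Gjb2, which encodes connexin 26, was dim throughout, with 4.98 and 5.49 in the tumours and 5.27 and 5.24 in the pools, and a difference of -0.02 (-0.48 to 0.45). Of 16 other connexin and pannexin genes, 0 fell and 1 rose, or 6.25% against 6.59% of all genes. In the lower direction 2 had an unadjusted limma p under 0.05. The 1 that rose was Gjb1, a connexin gene of oligodendrocytes (log2 fold change 0.64, adjusted p 0.0149), and its call was lost without pool 1 (0.087) or pool 2 (0.107), while 2 of the 16 rose without tumour 1.

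Among 6 genes of astrocyte metabolism, 2 fell. Glul encodes glutamine synthetase, which makes glutamine from the glutamate taken up, and had 11.51 and 11.45 in the tumours and 12.43 and 12.57 in the pools. It fell by 1.02 (SE 0.11, adjusted p 0.00633), also without any 1 sample, and its other probe set stood at -1.20 (0.00488). Slc25a18, which encodes a mitochondrial glutamate carrier, had 7.24 and 7.75 in the tumours and 8.46 and 8.64 in the pools. It fell by 1.05 (SE 0.19, adjusted p 0.0245), and the call was lost without pool 1 (0.0894) or pool 2 (0.138). Aldh1l1, the folate enzyme gene often used to label astrocytes, had 6.32 and 6.96 in the tumours and 7.07 and 7.84 in the pools. The groups barely separated, and its difference of -0.81 had an interval of -1.63 to 0.01 (adjusted p 0.171). The fatty acid activating gene Acsbg1 stood at -0.05 (-0.78 to 0.67), the glycogen regulator Ppp1r3c at 0.05 (-0.53 to 0.63) and Cbs, which encodes the transsulfuration enzyme cystathionine beta-synthase, at 0.25 (-0.19 to 0.69). In these 3 genes the groups overlapped, and tumour 2 was the highest of the 4 samples.

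**Figure D2:**
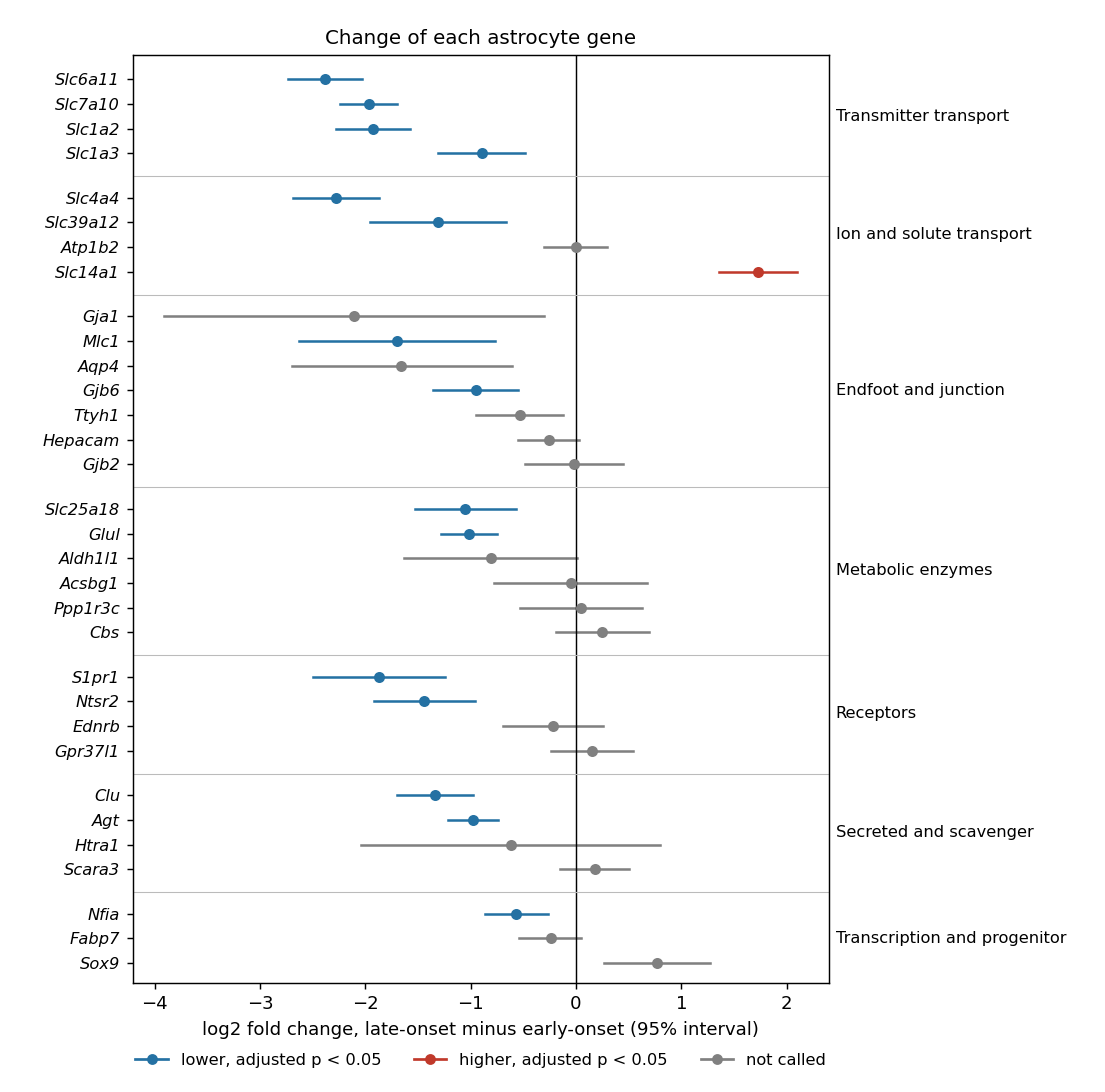
Log2 fold change, late-onset minus early-onset, of each astrocyte gene with its 95% interval from limma (x axis, log2 units; blue, called lower; red, called higher; grey, not called). The 15 calls on the lower side run from -0.57 for Nfia to -2.38 for Slc6a11, and Slc14a1 at 1.73 is the single call on the higher side.

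Receptor genes split, with 2 of 4 lower. S1pr1, a receptor for sphingosine 1-phosphate that endothelial cells also carry, had 7.94 and 8.36 in the tumours and 9.71 and 10.34 in the pools. It fell 3.66-fold (log2 fold change -1.87, SE 0.25, adjusted p 0.0113) and kept its call without any 1 sample. Ntsr2, a neurotensin receptor gene of astrocytes, had 7.38 and 7.70 in the tumours and 8.76 and 9.20 in the pools. It fell by 1.44 (SE 0.19, adjusted p 0.0111), and without pool 2 the adjusted p was 0.0509. Ednrb, the endothelin receptor B gene, had 12.03 and 11.54 in the tumours and 11.90 and 12.10 in the pools, a difference of -0.22 (-0.69 to 0.26). Gpr37l1, a receptor gene of astrocytes and glial progenitors, had 12.66 and 12.26 in the tumours and 12.29 and 12.33 in the pools, a difference of 0.15 (-0.24 to 0.54). For Ednrb and Gpr37l1 the groups overlapped, and tumour 2 was the lowest of the 4 samples.

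Of 4 genes for secreted or scavenger proteins, 2 fell. Clu, which encodes the secreted chaperone clusterin, had 10.33 and 10.39 in the tumours and 11.53 and 11.87 in the pools, and fell by 1.34 (SE 0.14, adjusted p 0.0065). Agt, which encodes angiotensinogen, had 6.73 and 6.75 in the tumours and 7.72 and 7.73 in the pools, and fell by 0.98 (SE 0.09, adjusted p 0.00551). Both calls held without any 1 sample. Htra1, which encodes a secreted serine protease, had 8.11 and 9.80 in the tumours and 9.89 and 9.27 in the pools. Tumour 1 was the lowest sample and tumour 2 lay between the pools, and the difference of -0.62 (-2.04 to 0.80) was 0.22 without tumour 1 (adjusted p 0.65) and -1.47 without tumour 2 (0.0398). Scara3, a scavenger receptor-like gene, stood at 0.18 (-0.15 to 0.50).

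Of 3 genes of astrocyte specification and of progenitors, 1 fell. Nfia, a nuclear factor I gene that starts astrocyte formation, had 10.70 and 10.89 in the tumours and 11.31 and 11.41 in the pools, and fell by 0.57 (SE 0.12, adjusted p 0.0343). Its other probe set stood at -0.22 (adjusted p 0.295), and the call was lost for the mean of both (-0.39, 0.0878), after median subtraction (-0.41, 0.054) and without pool 1 (0.126), pool 2 (0.191) or tumour 1 (0.0812). Sox9, which acts before Nfia in glial specification, had 9.40 and 9.42 in the tumours and 8.35 and 8.92 in the pools. Both tumours lay above both pools, and its log2 fold change of 0.77 (interval 0.27 to 1.27) had an adjusted p of 0.062. It was 0.49 without pool 1, 1.05 without pool 2 and 0.93 after median subtraction (adjusted p 0.0261). Sox9 was called under 2 of the 14 alternatives to the main fit. Fabp7, a lipid-binding protein gene of radial glia, had 12.15 and 12.36 in the tumours and 12.47 and 12.52 in the pools, a difference of -0.24 (-0.54 to 0.05, adjusted p 0.241).

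Within each group the astrocyte genes leaned towards sample 2. Tumour 2 was above tumour 1 in 26 of the 32 genes, with a median difference of 0.24, against 50.5% of all genes. Pool 2 was above pool 1 in 27 of 32, with a median of 0.17, against 53.5% of all genes. The labels number the samples within each group and do not pair a pool with a tumour. The widest gaps between the tumours were 2.25 for Gja1, 1.69 for Htra1 and 1.04 for Aqp4, and between the pools 0.84 for Mlc1, 0.79 for Aqp4 and 0.77 for Aldh1l1. Tumour 2 was also above tumour 1 in 11 of 12 endothelial markers, at a median difference of 0.53. The same held for 10 of 12 markers of mural cells and fibroblasts, at 0.43. Pool 2, by contrast, was above pool 1 in 1 of the 12 endothelial markers, at a median of -0.67. In the mural and fibroblast markers it was above pool 1 in 6 of 12, at -0.04. The summed linear signal of the mural and fibroblast markers was 4135 in tumour 2 and 888 in tumour 1, against 983 and 987 in the pools, with the collagen gene Col1a1 at 10.23 in tumour 2, 7.26 in tumour 1, and 7.44 and 7.57 in the pools. The part of these cells in the values of Gja1, Htra1 and the other genes was not tested.

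**Figure D3:**
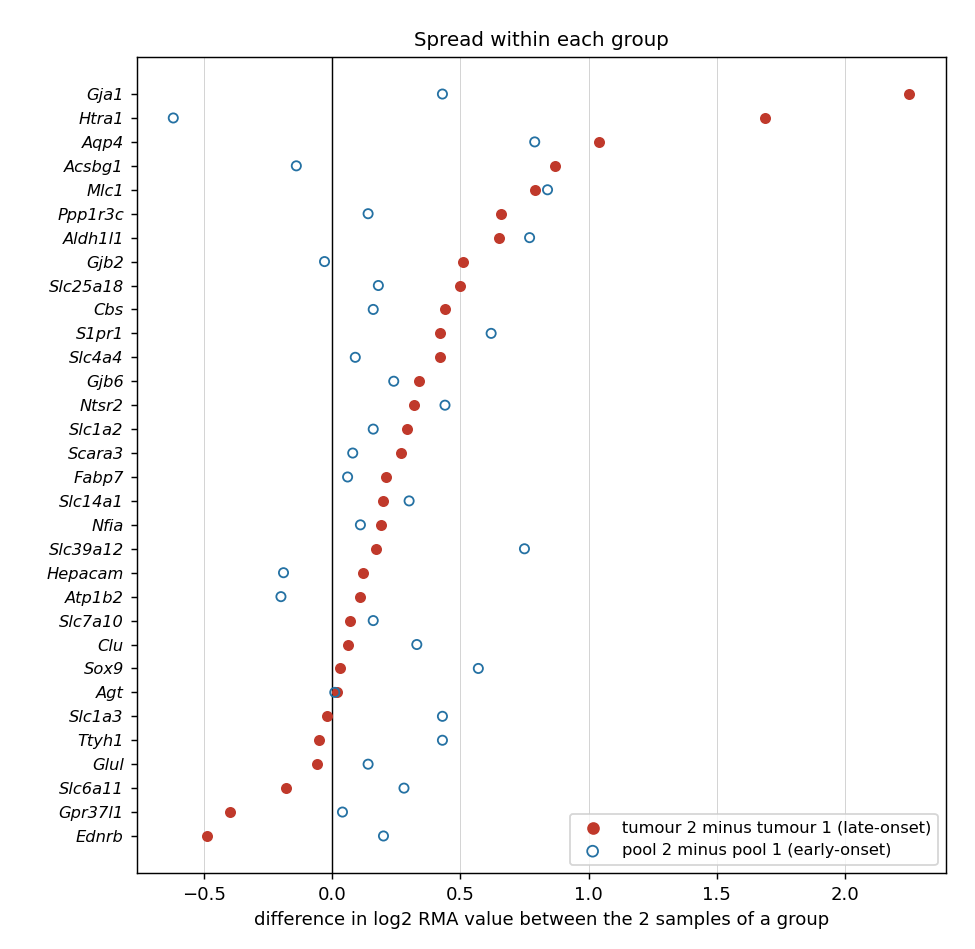
Difference between the 2 samples of each group for the 32 astrocyte genes (x axis, log2 units; filled red, tumour 2 minus tumour 1; open blue, pool 2 minus pool 1). Most points lie right of 0 in both groups, and Gja1 and Htra1 have the widest gaps between tumours.

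Astrocyte genes outside the 32 were read from a second list of 54 genes, 53 of them measured. Of these, 19 fell (35.8%, against 8.12% of all genes) and 1 rose (1.89%, against 6.59%), and the median log2 fold change was -0.53. Gpc5, a glypican gene, fell furthest (-3.14, adjusted p 0.0019), then the matrix gene Sparcl1 (-2.65, 0.00639), the glutamate receptor gene Grm3 (-2.34, 0.0242) and the phospholipase gene Pla2g7 (-2.21, 0.0103). Grm3 and Pla2g7 lost their calls without pool 1 (adjusted p 0.0511 and 0.0604) or pool 2 (0.111 and 0.0533), and the list's count that fell was 9 without pool 1 and 5 without pool 2. The count that rose was 4 without tumour 1 and also 4 after median subtraction. Mfge8, whose product helps phagocytes bind dying cells, was the 1 that rose (1.11, adjusted p 0.0358), and it lost its call without either pool (0.144 and 0.165). Gfap, the intermediate filament gene of astrocytes, had 7.40 and 8.69 in the tumours and 9.02 and 9.56 in the pools (-1.25, adjusted p 0.133), and without tumour 2 it was -1.89 (0.0173). The potassium channel gene Kcnj10 stood at 0.02 (adjusted p 0.965) and S100b at 0.16 (0.393), while the glycolytic gene Aldoc fell by 0.63 (0.0243), a call that was lost without each of the 4 samples in turn (0.0524 to 0.145).

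Pathway partners of the transporters were read from 3 further lists. Of 13 measured genes of glutamate and glutamine turnover, 4 fell (30.8%, against 8.12% of all genes) and 1 rose (7.69%, against 6.59%), at a median of -0.25. The GABA transaminase gene Abat fell by 1.45 (adjusted p 0.00542) and the glutamine exporter gene Slc38a3, which the second astrocyte list also holds, by 0.93 (0.00966), whereas the glutamine importer gene Slc1a5 rose by 0.95 (0.0103). Slc38a3 lost its call without pool 1 (adjusted p 0.0649) or pool 2 (0.0617), and Slc1a5 without pool 1 (0.0612), which left 0 higher. The count of the list that fell was 1 without pool 1 and 2 without pool 2. Of 13 genes of the dystrophin complex that anchors aquaporin 4, 2 fell (15.4%) and 1 rose. Dmd, the dystrophin gene, fell by 1.34 (adjusted p 0.0051) and its relative Utrn rose by 1.27 (0.00487), while 1 gene fell without pool 1, pool 2 or tumour 2, and 2 rose without tumour 1. Of 12 genes of the sodium pump and of volume control, 2 fell (16.7%) and 1 rose, led by the bicarbonate transporter gene Slc4a10 (-2.42, adjusted p 0.00229), and 1 fell without pool 2. The 1 that rose was Fxyd7, of a family of sodium pump regulators (1.65, adjusted p 0.0136), and its call was lost without pool 1 (0.0732) or pool 2 (0.0774).

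Factors of gliogenesis and genes of radial glia and reactive astrocytes had medians at or above 0. Of 26 measured gliogenic factors, 4 fell (15.4%, against 8.12% of all genes) and 1 rose (3.85%, against 6.59%), at a median of 0.00. Zbtb20, a factor gene of astrocyte formation, fell by 0.85 (adjusted p 0.00785) and Nfix by 0.72 (0.0155), while Nfib stood at 0.30 (0.121) and was called after median subtraction (0.46, 0.0432). Without pool 1 there was 1 lower gene and without pool 2 there were 0, with 0 higher in both cases, without tumour 1 there were 5 higher, and the Zbtb20 and Nfix calls were lost without either pool (adjusted p 0.0571 to 0.109). Of 14 radial glia genes, among them the member Slc1a3, 5 rose (35.7%) and 3 fell (21.4%), at a median of 0.00. Of those that rose, Mfge8 is also in the second astrocyte list, and another is also among the reactive astrocyte genes that rose. Nes, which encodes nestin, rose by 1.34 (adjusted p 0.0136) and was not called without pool 1 (0.0602) or pool 2 (0.0847). The counts were 2 higher and 1 lower without pool 1 and 0 in both directions without pool 2, and the count that fell was 2 without tumour 1 and 1 without tumour 2. Of 20 reactive astrocyte genes, 5 rose (25.0%) and 1 fell (5.0%), at a median of 0.61. Cd109, a surface protein gene, rose by 3.79 (adjusted p 0.00229), and Cp, the ceruloplasmin gene, fell by 2.61 (0.00303). Tumour 2 was above tumour 1 in 19 of these 20, and the count that rose was 10 without tumour 1, 2 without pool 2 and 5 without tumour 2, at a median of 0.16 for the last, where 3 fell.

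A fall in the same tumours was not particular to astrocyte genes, of which 46.9% of the 32 fell. The share that fell was 94.1% for microglia and macrophage markers, 43.8% for neuron markers and 42.9% for oligodendrocyte progenitor markers, against 8.12% of all genes. Falls of at least 2-fold were called in 11 of the 32 astrocyte genes and 15 of 17 microglia and macrophage markers. They were called in 3 of 16 neuron and 1 of 14 oligodendrocyte progenitor markers, against 3.53% of all genes. The median log2 fold changes of these 4 lists were -0.85, -3.77, -0.70 and -0.56. Of 17 microglia and macrophage markers, 16 fell and 0 rose (0 also at an unadjusted limma p under 0.05), with a summed linear signal of 2018 and 2937 in the tumours and 37089 and 32152 in the pools. Of 16 neuron markers, 7 fell and 1 rose, with sums of 4065 and 4138 in the tumours and 3995 and 4275 in the pools, and the count that fell was 2 without pool 1, 1 without pool 2 and 4 without tumour 1. The 1 neuron marker that rose was Tubb3, a tubulin gene of neurons, at 11.08 and 10.86 in the tumours and 9.53 and 8.70 in the pools (adjusted p 0.0152). Without Tubb3 the other 15 neuron markers summed to 1893 and 2277 in the tumours and 3258 and 3859 in the pools. Of 14 oligodendrocyte progenitor markers, 6 fell, with sums of 49542 and 48026 in the tumours and 66895 and 69836 in the pools, and 1 fell without either pool. Of 12 oligodendrocyte markers 3 fell and 3 rose, and the sums were 12353 and 14013 in the tumours and 11317 and 14591 in the pools, with 1 lower without either pool and 5 without tumour 2. Of 12 endothelial markers 1 fell and 1 rose, with sums of 1031 and 1502 in the tumours and 1502 and 1008 in the pools, and without either pool 0 fell, and 2 fell without tumour 2. Of 12 mural and fibroblast markers 2 fell and 0 rose, with 1 higher at an unadjusted limma p under 0.05. None fell without pool 1, pool 2 or tumour 1 or after median subtraction, 1 fell without tumour 2, and 5 rose without tumour 1. Of 10 ependymal and choroid plexus markers 0 were called by limma, with 2 lower and 1 higher at an unadjusted p under 0.05, and 4 fell without pool 1 and 1 without pool 2. In that list the choroid plexus gene Ttr had 5.23 and 5.01 in the tumours, 8.47 in pool 1 and 12.77 in pool 2 (adjusted p 0.0529, and 0.00922 without pool 1 or 0.011 without pool 2). The ependymal and choroid plexus markers summed to 559 and 544 in the tumours, 905 in pool 1 and 7711 in pool 2, most of the last from Ttr. Pool 2 was above pool 1 in 6 of these 10 genes, at a median difference of 0.07. RMA gives no value of 0, so no marker was at 0. The part of these cell types in the astrocyte genes was not tested.

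**Figure D4:**
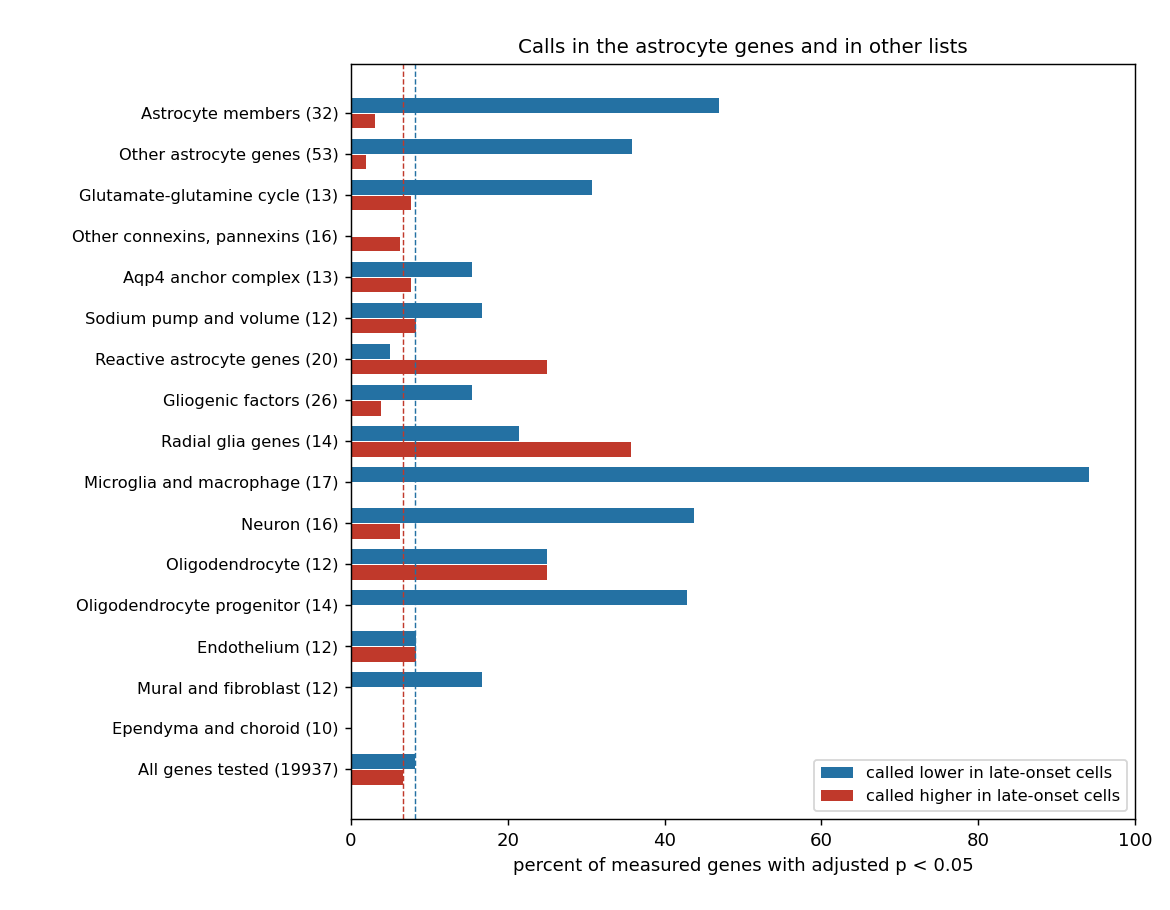
Share of measured genes called by limma at an adjusted p under 0.05 in each list, with the number measured in brackets (x axis, percent; blue, lower in late-onset cells; red, higher; dashed lines, all genes). The 32 astrocyte genes had 46.9% lower and 3.12% higher, the second astrocyte list 35.8% and 1.89%, and all genes 8.12% and 6.59%. Markers of microglia and macrophages had 94.1% lower, those of neurons 43.8% and those of oligodendrocyte progenitors 42.9%. The remaining lists had at most 30.8% lower.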

How the data were processed

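Gene expression was measured on 4 Affymetrix mouse arrays, 2 per group, and that number limits the precision. The authors deposited log2 probe set summaries, from 2.17 to 14.78. RMA and affy 3.4.2 are named, without parameters, in the submitters' processing notes. RMA scales probe intensities to a common distribution before they are summarised, which hides a change common to most genes, and it understates fold changes of dim ones. The deposited probe set medians still ran from 6.63 to 6.71. The platform annotation gave 1 symbol to 21640 of 34760 probe sets, several to 1321 and none to 11799. Probe sets with 1 symbol were kept, and the brightest one represented each of 19937 genes. Summed linear signals are sums of 2 to the power of the log2 values.

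Late-onset and early-onset samples were compared by limma 3.58.1 (R 4.3.3) with lmFit and plain eBayes on the deposited log2 values, with Benjamini-Hochberg adjustment over all genes. The fit had 2 residual degrees of freedom and a prior of 3.27. On simulated data with 200 changed genes it recovered 26.1% of log2 changes of 1 and 95.3% of changes of 2. False calls made up 2.5% and 4.6% of the calls. The data themselves gave 2931 calls, and the adjustment depends on how many genes change, so these shares need not hold there. A gene that was not called may still have changed. The labels call the samples biological replicates. The alternatives were each sample left out, the replicate number as a block, 3 scalings, a filter on dim genes, 2 probe set rules, 2 variance models and array weights. All 32 members are named. From each other list up to 4 called genes by absolute log2 fold change could be named, or 2 by moderated t without a call, and Gfap, Aldoc, S100b, Kcnj10, Nfib and Nfix were always included, while 1 other gene of that rule is not reported here. Olig2, Sox10 and Pdgfra check the label of the sorted cells. Col1a1 was chosen after its values were seen. The members and lists were chosen with earlier results of these data known.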

Additional observations from a re-analysis of the deposited data

How the results depend on the processing

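With 2 samples per group, the number of calls fell most when a pool was left out. The spread then came from the 2 tumours alone, so a lost call need not mean a smaller difference. Mlc1 stood at -2.12 without pool 1 and -1.28 without pool 2, against -1.70 with all 4 samples. Leaving out 1 sample at a time, the members called lower ranged from 8 to 16, those called higher from 1 to 2 and the median from -1.03 to -0.67, with the lone sample of a group assumed to vary like the other group. All genes gave 2931 calls, against 943 without pool 1, 850 without pool 2 and 1833 under the replicate block. After each array's median over genes was subtracted, 2 members were called higher (Slc14a1 and Sox9), Aqp4 was called lower and Nfia was not called. All genes then gave 1210 lower and 2839 higher, against 1618 and 1313. Of the 16 called members, 9 kept their call under all 14 alternatives and 5 lost it only with a sample left out or under the replicate block, while Mlc1 also lost it with robust eBayes and Nfia after median subtraction and as the mean of its probe sets. The labels do not pair samples of the same number. The deviations of pool 1 and tumour 1 from their group means correlated at -0.04 over all genes. A link limited to some genes was not tested. With the replicate block 15 members were called lower, 1 higher, at a median of -0.85. Under it Aqp4 and Aldh1l1 were called (adjusted p 0.0173 and 0.033) and Slc1a3 and Nfia were not (0.0507 and 0.056).

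Signs turned in 7 members, none of them called. Gjb2 was 0.04 after quantile normalization, 0.14 after median subtraction and 0.03 after cyclic loess, and median subtraction also gave 0.16 for Atp1b2 and 0.11 for Acsbg1. With 1 sample left out, log2 fold changes ranged from -0.27 to 0.24 for Gjb2, -0.10 to 0.10 for Atp1b2, -0.49 to 0.38 for Acsbg1, -0.05 to 0.35 for Gpr37l1, -0.29 to 0.38 for Ppp1r3c, -1.47 to 0.22 for Htra1 and -0.46 to 0.03 for Ednrb. The causes were not tested.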
